A study of Mus musculus with 6 samples.

Results

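The cytosolic ribosomal protein genes, which encode the protein subunits of the ribosome that translates nuclear mRNA, were followed in embryonic mouse hearts with and without Cdc42 in the heart muscle. Members were protein-coding genes whose symbol has the form Rpl or Rps with a number, plus the stalk genes Rplp0, Rplp1 and Rplp2 and the gene Rpsa, without the Rps6k kinase genes. The symbols gave 80 genes of the 30323 gene IDs in the table, 49 of the large subunit and 31 of the small subunit. Genes with other symbols that also encode ribosomal proteins, such as Fau and Rack1, were kept apart. RNA came from whole hearts at embryonic day 9.5, in 3 libraries of a myocardial Cdc42 knockout (MCKO, genotype labelled CDC-42 KO) and 3 control libraries (genotype labelled C57BL/6 ctrl). The labels name no strain, Cre driver or allele for the MCKO hearts, so strain and genotype cannot be told apart. The study's design text counts 3 hearts in a set, but no label ties a library to a litter or to 1 heart. The p-values therefore rest on how far these libraries differ within a group, a spread that may be only technical.

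A ribosome holds a single copy of most of its proteins, and cells hold their mRNAs at similar levels. Most of these mRNAs begin with a terminal oligopyrimidine tract (TOP), a short unbroken run of C and T bases at the very 5′ end that places their translation under the kinase mTOR and the binding protein Larp1. Ribosomal protein genes have also left many processed pseudogenes, copies made from their mRNA and inserted elsewhere, some of which differ from the parent by a few bases. Short reads from a gene and from such a copy are hard to tell apart, and estimated counts divide them between both. In growing heart muscle, ribosome production is part of how cells add mass, and ribosomal proteins left over when assembly fails, Rpl5 and Rpl11 above all, bind Mdm2 and stabilise p53.

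The libraries held 34246477, 25712499 and 23883877 estimated counts in MCKO replicates 1, 2 and 3, and 26983608, 19256840 and 32169289 counts in control replicates 1, 2 and 3. Levels are given as CPM, counts scaled to a common library size with TMM factors. Cdc42 itself stood at 253, 245 and 245 CPM in MCKO hearts and at 390.1, 371 and 413 CPM in control hearts, a log2 fold change of -0.66 (SE 0.047, edgeR adjusted p = 2.93e-06). Of 14697 genes tested, edgeR's quasi-likelihood test called 4308 higher and 4279 lower in MCKO hearts at an adjusted p under 0.05, together 58.4%, so calls were common in both directions. Markers of several cell types differed as well. Of 8 heart muscle markers 4 were higher, 1 lower and 3 not called, and their summed level was 39511 to 41054 CPM in MCKO hearts and 31863 to 34829 CPM in control hearts. All 9 primitive red cell markers in the table were higher in MCKO hearts, with sums of 6630 to 7099 CPM in MCKO and 3027 to 3346 CPM in control hearts. Of 8 endothelial and endocardial markers 7 were higher and 1 lower, and their sums were 1218 to 1241 CPM in MCKO and 926 to 934 CPM in control hearts. Markers of blood and of endothelium were thus mostly higher in MCKO hearts, and those of tissues next to the heart differed in both directions. All 5 epicardial and proepicardial markers were lower, with sums of 67.3 to 68.0 CPM in MCKO and 168 to 178 CPM in control hearts. Of 5 pharyngeal endoderm markers 4 were higher and 1 was not tested, with sums of 386 to 439 CPM in MCKO and 39.5 to 45.1 CPM in control hearts. Of 5 liver bud markers 3 were lower, 1 was higher and 1 was not tested; their sums were 1.74 to 2.19 CPM in MCKO and 13.3 to 15.2 CPM in control hearts, and Alb had no count in any MCKO library. The part of these cell types in the results on ribosomal protein genes was not tested.

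Most ribosomal protein mRNAs were higher in MCKO hearts, by a small amount. Of the 80 genes 78 had enough counts to be tested, and 51 of the 78 were higher in MCKO hearts (65.4%), against 29.3% of all tested genes called in that direction. Only 6 were lower, against 29.1% of all tested genes, and 21 were not called. The median log2 fold change of the 78 genes was 0.24, or 1.18-fold, beside 0.00 for all 14697 genes. The quartiles of the members were 0.16 and 0.32, and those of all genes were -0.28 and 0.34. Rises were called about as often in both subunits, while 5 of the 6 lower genes were of the small subunit. Of 47 tested large subunit genes 31 were higher and 1 lower (median 0.23). Of 31 small subunit genes 20 were higher and 5 lower (median 0.27). In 55 members every MCKO library lay above every control library and in 6 every one lay below, against 32.4% and 32.3% of all tested genes. Set against a minimum change of 0.25 on the log2 scale, only 10 members were called higher and 3 lower, against 18.5% and 15.8% of all tested genes. Most of the rises were thus small.

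The members took 3.77, 3.82 and 4.01% of all counts in MCKO replicates 1, 2 and 3, and 3.45, 3.601 and 3.17% in control replicates 1, 2 and 3. Every MCKO library was above every control library, with means of 3.87 ± 0.132% in MCKO and 3.41 ± 0.218% in control hearts (SD, n = 3 each). The exact 95% binomial interval of each share was narrow beside these differences, from 3.76 to 3.77% in MCKO replicate 1 and from 3.17 to 3.18% in control replicate 3, and covers counting error only. In whole hearts, a change in the number of cells of a type and a change in RNA per cell cannot be told apart.

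**Figure D1:**
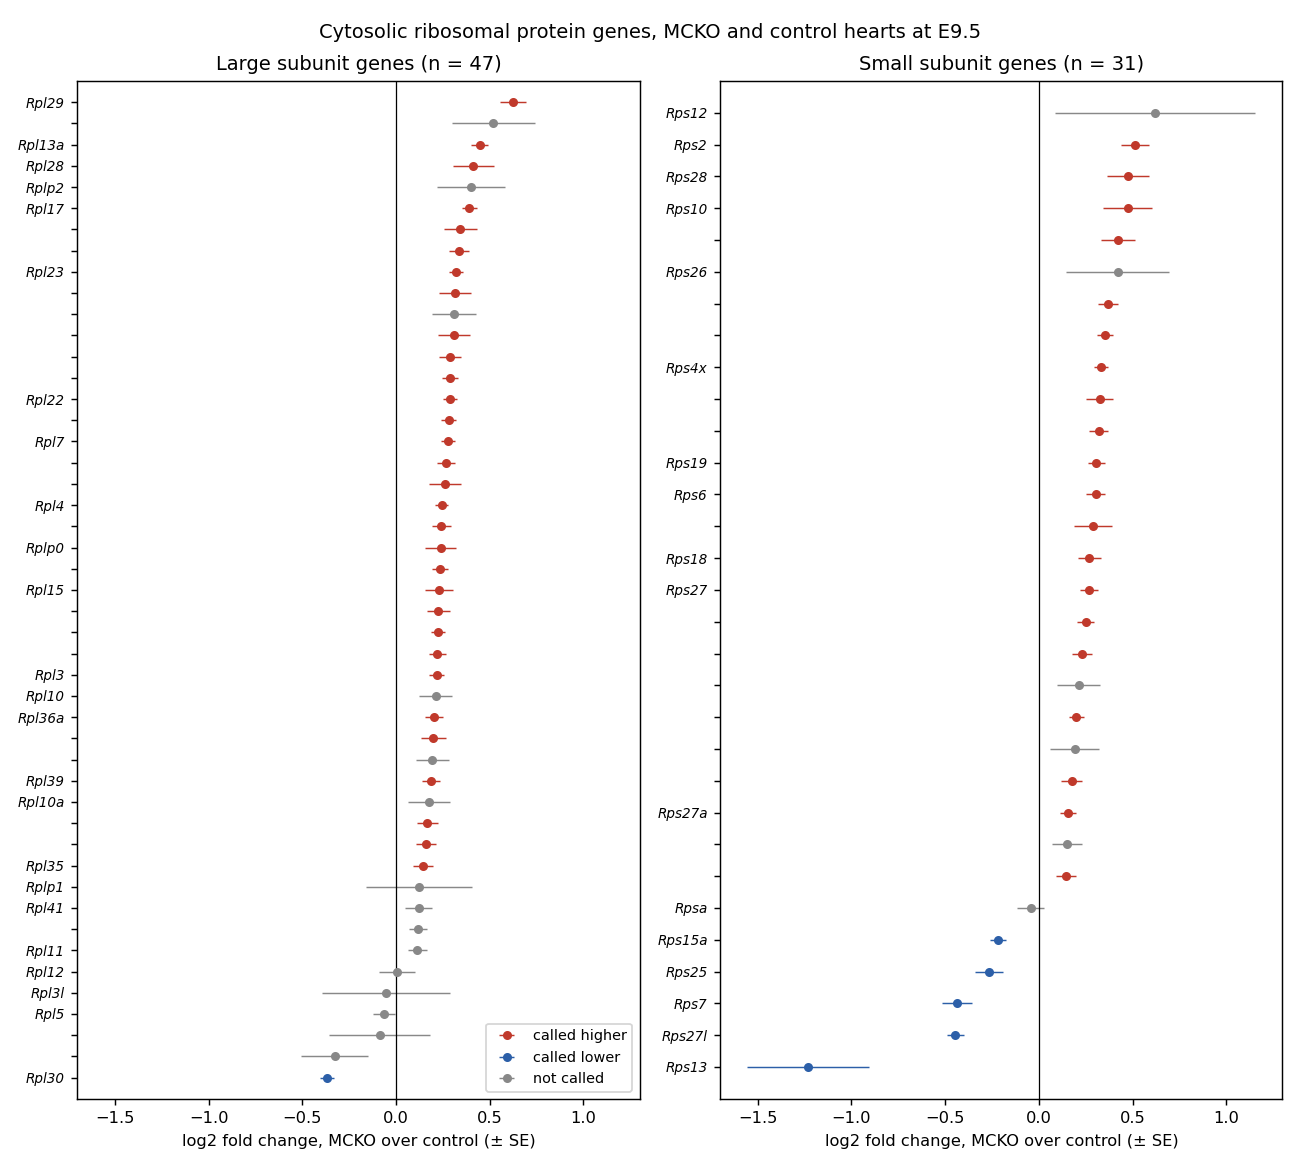
Log2 fold change of each tested ribosomal protein gene (MCKO over control, horizontal axis) with its standard error as a bar, large subunit genes on the left and small subunit genes on the right, sorted by size, with names for the genes that the text describes. Of the 78 genes 51 were called higher (red), 6 lower (blue) and 21 were not called (grey), and 62 lay between 0.1 and 0.5.

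Among large subunit genes counted without their near-identical copies, the largest called rise was that of Rpl29, which encodes a protein that is not essential in mice and whose loss makes them small. Rpl29 (chr9:106429454-106431568, plus strand, GRCm38) had 376, 385 and 398 CPM in MCKO hearts, against 247, 278 and 228 CPM in control hearts. The groups were well apart, with a log2 fold change of 0.62 (SE 0.068, edgeR adjusted p = 6.0e-05). Summed with copies, Rpl29 gave 0.43 and Rpl28 0.44, so their order depended on the copies. Rpl13a, which also has a role outside the ribosome in silencing inflammatory mRNAs, had 359, 333 and 341 CPM in MCKO and 262, 251 and 245 CPM in control hearts (0.45, SE 0.044, edgeR adjusted p = 2.67e-05). Rpl28 had 189, 189.6 and 209 CPM in MCKO and 154, 166 and 122 CPM in control hearts, again without overlap (0.41, SE 0.11, edgeR adjusted p = 0.0150). Rpl17, a protein near the exit of the nascent chain tunnel, had 589, 578 and 607 CPM in MCKO and 447, 465 and 441 CPM in control hearts (0.39, SE 0.040, edgeR adjusted p = 3.12e-05). The replicates of both groups lay close together for Rpl17 and Rpl13a, while for Rpl28 and Rpl29 control replicate 3 was the lowest library.

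Among small subunit genes counted without their copies, the largest called rise was that of Rps2, a protein at the mRNA entry channel. Summed with its copies, Rps2 gave only 0.19, while Rps10 stayed at 0.47. Rps2 (chr17:24718116-24721929, plus strand) had 1103, 1153 and 1246 CPM in MCKO hearts and 801, 907 and 745 CPM in control hearts (0.51, SE 0.076, edgeR adjusted p = 0.000489). Rps28 had 254, 245 and 293 CPM in MCKO and 189.7, 217 and 164 CPM in control hearts (0.47, SE 0.11, edgeR adjusted p = 0.00889). Rps10, whose human counterpart is mutated in some cases of Diamond-Blackfan anaemia, had 434, 529.9 and 547 CPM in MCKO and 370.1, 410.0 and 307 CPM in control hearts (0.47, SE 0.13, edgeR adjusted p = 0.0209). Its call was lost when MCKO replicate 2 (0.44), MCKO replicate 3 (0.41) or control replicate 3 (0.37) was left out. In all 3 genes the lowest MCKO library was above the highest control library, and control replicate 3 was the lowest of all.

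Rps19 and Rps6 are the members best known outside the field. Rps19, the gene most often mutated in Diamond-Blackfan anaemia, had 572, 565 and 586 CPM in MCKO and 451, 495 and 447 CPM in control hearts (0.31, SE 0.047, edgeR adjusted p = 0.000435). Rps6, whose protein is phosphorylated by the kinases downstream of mTOR, had 883, 908 and 915 CPM in MCKO and 752, 764 and 677 CPM in control hearts (0.30, SE 0.051, edgeR adjusted p = 0.000695). Rps18, among the highest members per kilobase, had 769.9, 772 and 834 CPM in MCKO and 650.2, 711 and 610.3 CPM in control hearts (0.27, SE 0.060, edgeR adjusted p = 0.00361). All 3 genes had every MCKO library above every control library. Their values lay between the median (0.24) and the upper quartile (0.32) of the members.

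The stalk of the large subunit, which recruits elongation factors, is built from Rplp0, Rplp1 and Rplp2. Rplp0 had 1445, 1465 and 1561 CPM in MCKO and 1283, 1405 and 1101 CPM in control hearts (0.24, SE 0.083, edgeR adjusted p = 0.0382). That call was lost when any of MCKO replicates 1, 2 and 3 or control replicate 1 was left out (0.21 to 0.26) and with library totals in place of TMM (0.18). Rplp1 had 529, 624 and 679 CPM in MCKO and 602, 717 and 365 CPM in control hearts, so that the groups overlapped (0.12, SE 0.28, edgeR adjusted p = 0.737). Without control replicate 3, where Rplp1 was far below the other controls, the value was -0.11. Rplp2 had 370.0, 426 and 467 CPM in MCKO and 324, 385 and 248 CPM in control hearts and was not called (0.40, SE 0.18, edgeR adjusted p = 0.112). In all 3 stalk genes control replicate 3 was the lowest of the libraries. Rpsa, a small subunit protein first known as a laminin receptor, was not called either, with 81.7, 88.5 and 93.5 CPM in MCKO and 94.95, 95.5 and 81.6 CPM in control hearts (-0.04, edgeR adjusted p = 0.629).

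Rps27a encodes a small subunit protein fused to ubiquitin, which is cut off after translation. Rps27a had 718, 699.9 and 743 CPM in MCKO and 643, 630.4 and 666 CPM in control hearts and was higher (0.16, SE 0.041, edgeR adjusted p = 0.00896). Its MCKO values all lay above its control values.

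The 6 genes that were lower fell into genes with an abundant near-identical copy and genes without one. Rps13, which binds the central part of the small subunit's RNA, had 65.4, 75.7 and 77.9 CPM in MCKO and 188, 224 and 103 CPM in control hearts (-1.23, SE 0.33, edgeR adjusted p = 0.0282). That call was lost when any single library other than control replicate 3 was left out (-1.28 to -0.997). Rps7 had 273, 274 and 292 CPM in MCKO and 394, 413 and 330.3 CPM in control hearts (-0.44, SE 0.079, edgeR adjusted p = 0.00164). Rpl30 had 249, 238 and 248 CPM in MCKO and 318, 320.3 and 310.3 CPM in control hearts (-0.37, SE 0.038, edgeR adjusted p = 3.54e-05). Each of these 3 genes has a copy that went the other way.

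Copies were found by sequence: transcripts of other genes at least 95% identical over at least 80% of either transcript. The table held 453 such copies, 442 of them annotated as pseudogenes, for 73 of the 80 members. Of the copies 387 had at least 1 count, 69 were tested and 30 averaged at least 10 CPM. For 29 members the copies held at least 1% of the counts of gene and copies together, and for 10 members more than 50%. Values of these 29 genes alone are uncertain, since reads can be assigned to either locus. Rps13-ps1 on chromosome 8 had 345, 350.4 and 359.5 CPM in MCKO and 125, 151 and 106 CPM in control hearts (1.47, SE 0.12, edgeR adjusted p = 4.95e-05). Gm6472 on the X chromosome, a copy of Rps7, had 284, 283 and 278 CPM in MCKO and 115, 103 and 146 CPM in control hearts (1.21, SE 0.12, edgeR adjusted p = 0.00014). Gm12191 on chromosome 11, a copy of Rpl30, had 93.4, 91.8 and 98.7 CPM in MCKO and 22.8, 23.1 and 21.3 CPM in control hearts (2.08, SE 0.054, edgeR adjusted p = 6.57e-09). Gm10288 on chromosome 3, a copy of Rpl11, went in the opposite direction, with 0.596, 0 and 0 CPM in MCKO and 72.0, 64.7 and 91.1 CPM in control hearts. In each of the 4 copies no MCKO library came near a control library.

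The stretches below show how little separates a gene from its copy. Rps13 and Rps13-ps1 differed at 2 of 522 aligned bases, Rps7 and Gm6472 at 3 of 582, and Rpl30 and Gm12191 at 1 of 348. Each pair of lines gives 29 bases, 5′ to 3′ along the mRNA, from GENCODE M21 transcripts on GRCm38, with the base that differs in capitals. Positions count from 1 at the 5′ end of the gene's transcript, and the substitutions are A517G for Rps13, G251A for Rps7 and G273A for Rpl30, the gene's base first.
Rps13: tggaaatatgagtcAtccacagcctctgc
Rps13-ps1: tggaaatatgagtcGtccacagcctctgc
Rps7: aatggcgagaagccGgacgagttcgagtc
Gm6472: aatggcgagaagccAgacgagttcgagtc
Rpl30: gtgctgggctacaaGcagactctgaagat
Gm12191: gtgctgggctacaaAcagactctgaagat
For Rpl30 the capital marks the only mismatch in the alignment, so a read that does not cover that base fits gene and copy equally well within the aligned part.

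**Figure D2:**
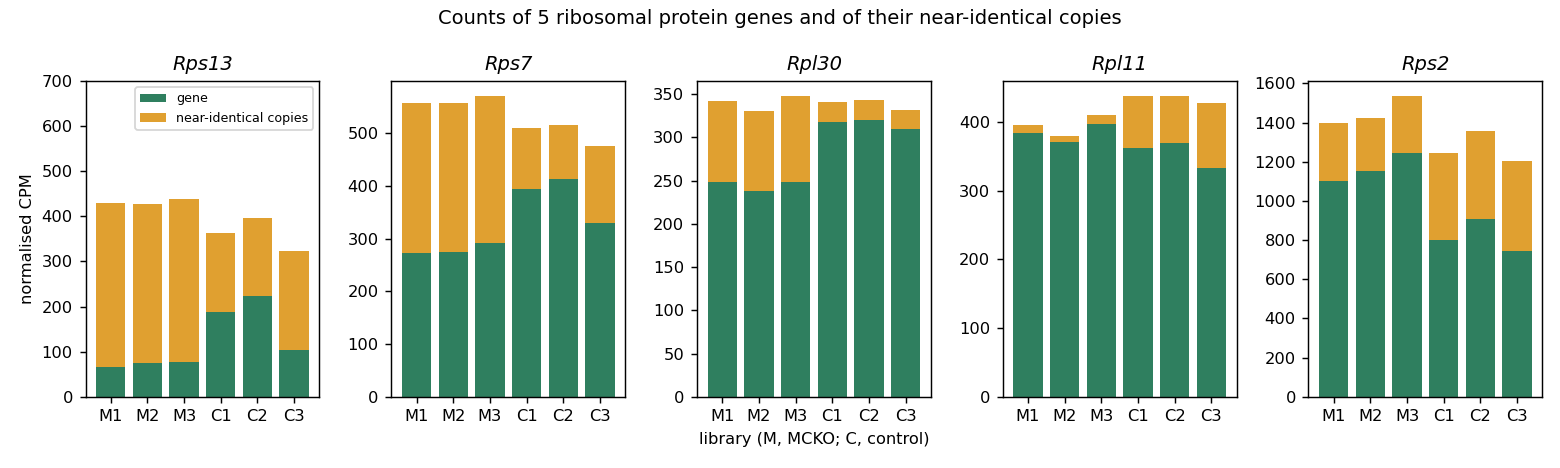
Normalised CPM (vertical axis) of 5 ribosomal protein genes (green) stacked with the sum of their near-identical copies (orange) in each of the 3 MCKO (M) and 3 control (C) libraries. In Rps13, Rps7 and Rpl30 the gene was lower and its copies higher in MCKO, while in Rpl11 and Rps2 the copies were lower in MCKO.

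When the counts of each gene were summed with those of its copies before the fit, 61 members were higher in MCKO hearts (78.2%, against 29.5% of all tested genes) and 4 lower (against 29.2%). The median was 0.25. All 51 genes called higher alone stayed higher and 10 were gained, among them Rps13 and Rps7, which were lower alone. Rps13 with its copies gave 0.26 (edgeR adjusted p = 0.00739) and Rps7 gave 0.17 (edgeR adjusted p = 0.00687), both close to the other members. Rpl30 with its copies gave 0.01 (edgeR adjusted p = 0.886). Rps2 gave 0.19, and its copy Rps2-ps10 was lower, at 279, 253 and 272 CPM in MCKO and 419, 429.8 and 445 CPM in control hearts. Rpl29 gave 0.43. Of the 49 tested members whose copies held under 1% of the counts, 38 were higher and 3 lower (median 0.25), and of the other 29 members 13 were higher and 3 lower (median 0.19).

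**Figure D3:**
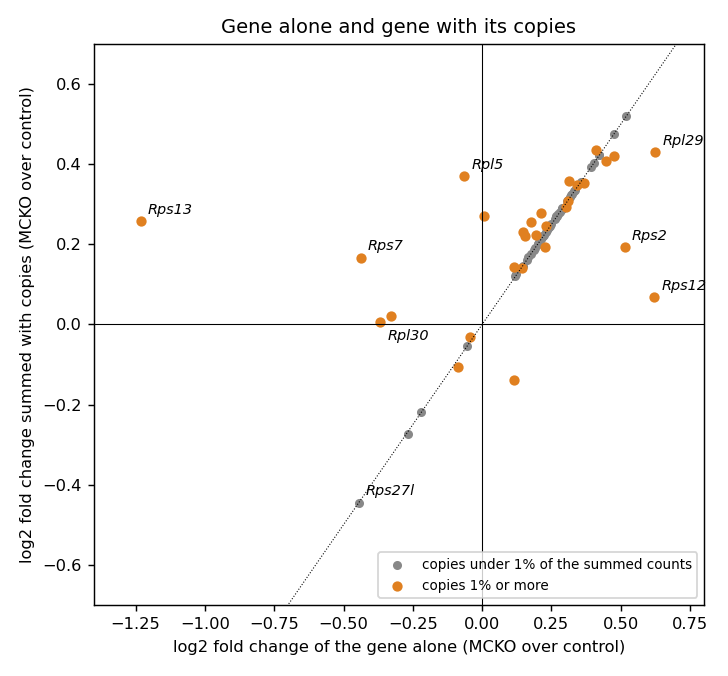
Log2 fold change (MCKO over control) of each tested member alone (horizontal axis) and summed with its copies (vertical axis), with members whose copies hold under 1% of the summed counts in grey and the others in orange. Most genes lie on the dotted line of equal values, Rps13 moves from -1.23 to 0.26, Rps7 from -0.44 to 0.17 and Rpl5 from -0.06 to 0.37, and Rps27l stays at -0.45 and -0.44.

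Some members were represented in the table mainly by a copy. Rpl5, which carries 5S RNA into the large subunit, had 81.1, 77.5 and 81.5 CPM in MCKO and 84.2, 77.4 and 89.1 CPM in control hearts (-0.06, edgeR adjusted p = 0.361). Its copy Gm15500 on chromosome 7, the most abundant copy of all, had 1275, 1249 and 1341 CPM in MCKO and 981, 970.2 and 974 CPM in control hearts (0.40, SE 0.039, edgeR adjusted p = 2.49e-05). Gene and copies together gave 0.37 (edgeR adjusted p = 3.9e-05). For Rps12 the copies held 99.9% of the summed counts, most of them Rps12-ps3, with 613, 637 and 699.98 CPM in MCKO and 609.9, 703 and 491 CPM in control hearts (0.11, edgeR adjusted p = 0.498). The other 3 of the 5 most abundant copies were all higher: Gm10275 of Rpl12 (0.29), Rpl10-ps3 of Rpl10 (0.32) and Rpl10a-ps1 of Rpl10a (0.30). Rpl12 alone had the largest p of all tested members (0.01, edgeR adjusted p = 0.959) and gave 0.27 with its copies.

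Rpl5 and Rpl11, the pair that binds Mdm2, gave values of opposite sign both alone and with copies. Counting the copies changed the sign of each. Rpl11 alone had 384, 370.3 and 398 CPM in MCKO and 362, 369 and 334 CPM in control hearts, barely apart and not called (0.11, edgeR adjusted p = 0.0740). With its copies it was lower (-0.14, edgeR adjusted p = 0.0150), and Gm10288, as given above, was at or near 0 in MCKO hearts.

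The remaining lower genes kept their direction with copies included. Rps27l (chr9:66946086-66949516, plus strand), a variant of Rps27 known in human cells as a p53 target, has no near-identical copy and had 63.3, 59.8 and 63.8 CPM in MCKO and 84.2, 85.3 and 85.1 CPM in control hearts. Its replicates lay within a few CPM of each other in both groups (-0.45, SE 0.044, edgeR adjusted p = 2.73e-05). Rps15a, a small subunit gene, had 394, 397 and 417 CPM in MCKO and 468, 486 and 453 CPM in control hearts (-0.22, SE 0.043, edgeR adjusted p = 0.00179). Rps25, a protein used by viral internal ribosome entry sites, had only 11.2, 12.2 and 12.2 CPM in MCKO hearts. In control hearts Rps25 had 14.6, 14.5 and 13.7 CPM (-0.27, SE 0.074, edgeR adjusted p = 0.0116). Its call was lost without MCKO replicate 1 (-0.23). Since 72 of the 78 tested members averaged at least 50 CPM, Rps25 was unusually low for a member, and the reason was not tested.

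Paralogs that replace a standard subunit in some tissues were set beside their parents. Rps27, the parent of Rps27l, went the other way, with 287, 280.3 and 294 CPM in MCKO and 224, 246 and 245 CPM in control hearts (0.27, SE 0.047, edgeR adjusted p = 0.000917). Rpl7 was higher (0.28, SE 0.038, edgeR adjusted p = 0.000206), whereas Rpl7l1, a related protein of large subunit assembly, had 94.2, 94.8 and 93.0 CPM in MCKO and 112, 112 and 113 CPM in control hearts (-0.26, SE 0.038, edgeR adjusted p = 0.000358). Rpl22 (0.29, edgeR adjusted p = 0.000182) and Rpl36a (0.20, edgeR adjusted p = 0.00485) were higher, and their paralogs Rpl22l1 (-0.09, edgeR adjusted p = 0.134) and Rpl36al (-0.09, edgeR adjusted p = 0.108) were not called. The differences between parent and paralog were not tested.

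Rpl3l, the form of Rpl3 used by adult heart and skeletal muscle, was close to the limit of detection at this stage. Rpl3l had 0.536, 0.792 and 1.07 CPM in MCKO and 1.09, 0.511 and 0.788 CPM in control hearts (-0.05, edgeR adjusted p = 0.904), while Rpl3 had 1525, 1532 and 1589 CPM in MCKO and 1329.6, 1378 and 1289.8 CPM in control hearts (0.22, SE 0.040, edgeR adjusted p = 0.00129). Rpl10l and Rpl39l, which stand in for X-linked Rpl10 and Rpl39 in male germ cells, were not tested: Rpl10l had no count in any library and Rpl39l had 0.0363 to 0.102 CPM. Rpl39 was higher (0.19, edgeR adjusted p = 0.00792) and Rpl10 alone was not called (0.21, edgeR adjusted p = 0.0707). Rps4x, also X-linked, had 1225, 1199 and 1278 CPM in MCKO and 982, 983 and 978 CPM in control hearts (0.33, SE 0.038, edgeR adjusted p = 6.75e-05), and the related pseudogene Rps4l was not called (-0.32, edgeR adjusted p = 0.311).

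Per kilobase of transcript most genes, summed with their copies, lay close together. The median was 787 CPM per kilobase in MCKO and 663 CPM per kilobase in control hearts, and 70 and 69 of the 78 tested genes were within 2-fold of it. The highest was Rpl41, the shortest ribosomal protein, with 1544 CPM per kilobase in MCKO and 1421 CPM per kilobase in control hearts, and the lowest was Rpl3l. Rpl41 alone was not called (0.12, edgeR adjusted p = 0.192).

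The controls differed among themselves more than the MCKO libraries did. Over the 72 members of at least 50 CPM the median coefficient of variation was 3.81% in MCKO and 6.81% in control hearts, against 2.93% in MCKO and 4.84% in control hearts over 4533 genes of the same level. Control replicate 3 was below the mean of the other controls in 65 of the 72 genes, with a median log2 difference of -0.16, while over the 4533 genes it was below in 2148, with a median of 0.01. Across the 72 genes this difference correlated with the GC content of the transcript (Pearson's r -0.41, Spearman's rho -0.56), a description over genes that share the same libraries. The log2 fold change between groups showed little such relation to GC content (r 0.21, rho 0.17) or to length (r 0.03, rho 0.02). Without control replicate 3, 49 members were higher and 7 lower, with a median of 0.19. The shares of all genes called in each direction in that fit are not given here. With 1 library left out, 7452 to 8695 genes were called in either direction.

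**Figure D4:**
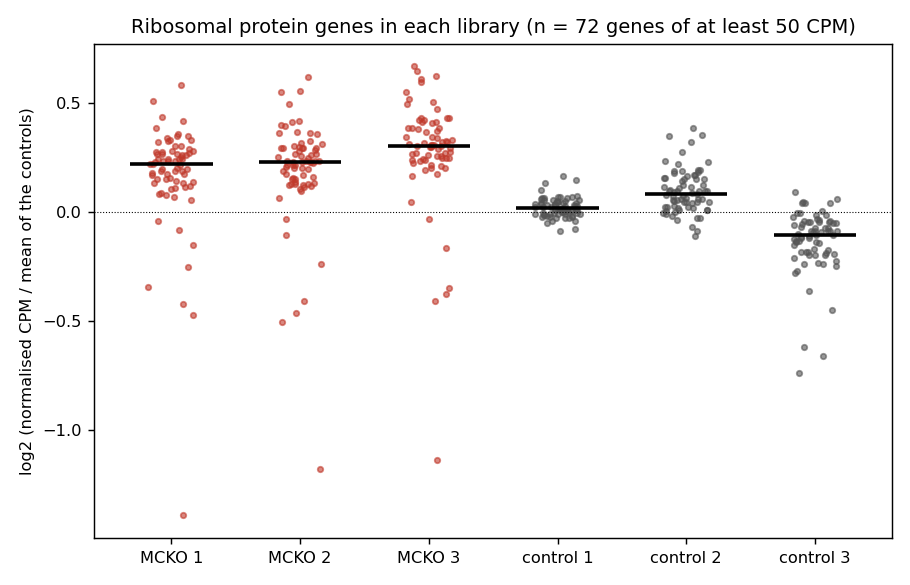
Each point is 1 of 72 ribosomal protein genes of at least 50 CPM, drawn as the log2 ratio of its normalised CPM in that library to the mean of the 3 controls (vertical axis), for 3 MCKO (red) and 3 control (grey) libraries, with the median as a black bar. The MCKO medians all lie above the control medians, and control replicate 3 lies lowest, with 65 of the 72 genes below 0.

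RefSeq promoter windows on GRCm38.p6 were matched to 60 of the 80 members, some with more than 1 start. A TOP was taken as a run of at least 5 C or T bases that begins with C exactly at the annotated start, read on the gene's strand. It was present in 13 of 72 member windows (18.1%), against 823 of 32851 windows of all genes (2.51%). The letters CTTTCC on either strand of the 300-base window, which may overlap such a run, were in 36 of the 72 windows and in 26.6% of all windows. An annotated start that is off by a few bases hides a tract, so a missing run says only that it is not at that base. The lines below show the longest runs among called genes, and the single lower gene with a run, as 15 bases before and 15 bases from the start, with the run in capitals.
Rpl15 chr14:18270972-18271001, minus strand: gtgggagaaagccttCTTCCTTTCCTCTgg
Rpl35 chr2:39005117-39005146, minus strand: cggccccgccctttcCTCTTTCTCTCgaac
Rps10 chr17:27635230-27635259, minus strand: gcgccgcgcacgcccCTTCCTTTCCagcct
Rps18 chr17:33955651-33955680, minus strand: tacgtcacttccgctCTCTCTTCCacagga
Rps6 chr4:86857353-86857382, minus strand: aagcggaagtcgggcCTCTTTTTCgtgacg
Rps15a chr7:118116133-118116162, minus strand: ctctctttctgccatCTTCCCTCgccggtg
Of the 13 genes with a run 10 were higher and 1 lower (median 0.23). Of 45 tested genes with a window but no run 27 were higher and 4 lower (median 0.24). Among all tested genes 29.3% were higher and 29.1% lower. Rpl15, Rpl35, Rps10, Rps18 and Rps6 were higher, and Rps15a was the only lower gene with a run.

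The members were also described by features that the symbols did not select. They lay on 19 chromosomes, with 14 of them on chromosome 7. That number was not compared with the share of all genes on chromosome 7. In 29 of the 80 genes (36.3%) the annotation places at least 1 snoRNA gene inside the gene, 56 snoRNAs in all, against 1.62% of 14110 tested protein-coding genes. These small RNAs guide the chemical modification of ribosomal RNA and are released from the introns of their host. Rpl4 hosts 5 and Rpl13a hosts 4. Of the 29 host genes 18 were higher and 2 lower (median 0.25). Of the 49 tested genes without a snoRNA 33 were higher and 4 lower (median 0.23). Among all tested genes 29.3% were higher and 29.1% lower.

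Ribosomal protein genes and relatives outside the symbol rule were called about as often as other genes. Of 7 measured, 3 were higher and 1, the assembly protein gene Rpl7l1, was lower, beside 58.4% of all tested genes called in either direction. Rps3a1, which encodes the small subunit protein eS1, had 1195, 1162 and 1216 CPM in MCKO and 1016, 974 and 976 CPM in control hearts (0.27, SE 0.038, edgeR adjusted p = 0.000268). Rack1, a signalling scaffold on the small subunit, gave 0.25 (SE 0.060, edgeR adjusted p = 0.00649). Fau, a fusion of a ubiquitin-like protein and eS30, gave 0.51 (SE 0.16, edgeR adjusted p = 0.0312).

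Other mRNAs known to begin with a TOP moved mostly in the same direction. Of 19 such genes, chiefly elongation factors and initiation factor subunits, 13 were higher and 2 lower, with a median of 0.17. Among all tested genes 29.3% were higher and 29.1% lower. Eef1a1, which delivers tRNA to the ribosome, had 10046, 9890 and 10326 CPM in MCKO and 7519, 7714 and 7627 CPM in control hearts (0.40, SE 0.036, edgeR adjusted p = 1.24e-05). Eif4b, a helper of the initiation helicase, had 738, 733 and 729 CPM in MCKO and 414, 404 and 413 CPM in control hearts (0.84, SE 0.035, edgeR adjusted p = 1.14e-07). Neither gene's groups overlapped, and the replicates were within a few percent of each other. The initiation factor subunit gene Eif3h (0.40, edgeR adjusted p = 4.84e-05) and Tpt1 (0.35, edgeR adjusted p = 6.26e-05) were also among the 4 with the smallest p.

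Genes of ribosome biogenesis, which make and process ribosomal RNA and assemble the subunits, went the other way. Of 25 such genes 20 were lower and 2 higher, against 29.1% and 29.3% of all tested genes, with a median of -0.41. Ltv1, an assembly factor of the small subunit, had 42.4, 43.7 and 44.1 CPM in MCKO and 90.4, 86.3 and 89.6 CPM in control hearts (-1.03, SE 0.045, edgeR adjusted p = 1.34e-07). Tsr1, another late factor of the small subunit, gave -0.56 (edgeR adjusted p = 3.78e-06), and the nucleolar scaffold gene Nolc1 gave -0.52 (edgeR adjusted p = 7.33e-06). The exceptions were Nop14, at 0.32, and Myc, a transcription factor that drives ribosome production, which had 33.7, 40.1 and 37.7 CPM in MCKO and 15.2, 18.03 and 14.9 CPM in control hearts (1.22, SE 0.092, edgeR adjusted p = 4.52e-06). Both Ltv1 and Myc were clearly apart between groups, in opposite directions.

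Chaperones that carry new ribosomal proteins and export factors of the subunits were lower more often than higher. Of 16 such genes 10 were lower and 2 higher, against 29.1% and 29.3% of all tested genes, with a median of -0.22. Grwd1, whose yeast counterpart is a chaperone of Rpl3, had 33.7, 33.0 and 32.2 CPM in MCKO and 59.0, 64.7 and 55.9 CPM in control hearts (-0.86, SE 0.062, edgeR adjusted p = 3.48e-06). Heatr3 (-0.67, edgeR adjusted p = 1.04e-05), Bccip (-0.39, edgeR adjusted p = 9.65e-05) and Tsr2 (-0.54, edgeR adjusted p = 0.000262), known in yeast or human cells as carriers of Rpl5, Rpl23 and Rps26, were lower too. Of the partners of these 3 chaperones, Rpl23 was called higher (0.32) and Rpl5 and Rps26 alone were not called. Summed with its copies, Rpl5 was called higher (0.37). Rpl3 was also called higher (0.22).

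**Figure D5:**
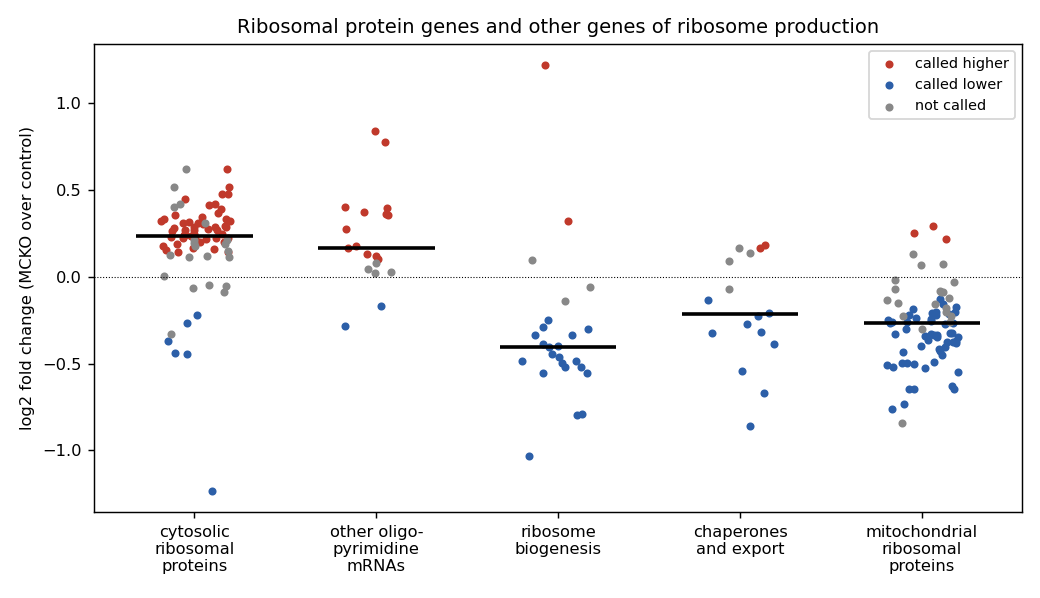
Log2 fold change (MCKO over control, vertical axis) of each gene in 5 lists, with the median as a black bar and calls in red (higher), blue (lower) and grey (not called). The cytosolic ribosomal protein genes (median 0.24) and other TOP mRNAs (0.17) lie mostly above 0, and genes of ribosome biogenesis (-0.41), chaperones and export (-0.22) and mitochondrial ribosomal proteins (-0.27) mostly below.

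Ribosomal proteins of the mitochondrion, which are encoded in the nucleus and translate the organelle's own mRNAs, were set beside the cytosolic ones. Of 77 genes 54 were lower and 3 higher, with a median of -0.27. Of 13 mitochondrially encoded genes 11 were lower and none higher (median -1.24). Among all tested genes 29.1% were lower and 29.3% higher. The mitochondrially encoded genes took 1.31 to 1.38% of the counts in MCKO and 3.13 to 3.55% in control libraries. With library totals in place of TMM, which moved the median of all genes by -0.06, 39 cytosolic ribosomal protein genes were higher and 6 lower. The shares of all genes called in each direction with library totals are not given here.

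Regulators of TOP mRNAs gave counts close to those of all genes. Of 12 genes 3 were higher and 5 lower, against 29.3% and 29.1% of all tested genes, with a median of -0.12. Mtor itself had 82.9, 82.7 and 83.9 CPM in MCKO and 105, 112 and 108 CPM in control hearts (-0.38, SE 0.042, edgeR adjusted p = 4.79e-05). Eif4ebp1, which represses cap-dependent translation when mTOR is inactive and was named after its values were seen, had 53.9, 70.4 and 72.6 CPM in MCKO and 28.5, 33.5 and 22.1 CPM in control hearts (1.24, SE 0.18, edgeR adjusted p = 0.00161). Tial1 (0.28, edgeR adjusted p = 0.00128) was higher and Ssb (-0.30, edgeR adjusted p = 0.00148) and Rps6kb1 (-0.27, edgeR adjusted p = 0.00155), the kinase of Rps6, were lower. Larp1 was higher by 0.14.

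Of 8 genes of the p53 response to ribosomal stress, 4 were higher and 2 lower, against 29.3% and 29.1% of all tested genes, with a median of 0.10. Sesn2, which restrains mTOR and also answers to other stresses, had 62.4, 63.7 and 65.9 CPM in MCKO and 11.8, 11.2 and 11.5 CPM in control hearts (2.47, SE 0.055, edgeR adjusted p = 2.61e-09). Cdkn1a, an inhibitor of the cell cycle, had 49.9, 52.97 and 52.1 CPM in MCKO and 14.97, 16.2 and 13.7 CPM in control hearts (1.79, SE 0.069, edgeR adjusted p = 6.26e-08). Ccng1 was lower (-0.50, edgeR adjusted p = 0.000174) and Phlda3 higher (0.31, edgeR adjusted p = 0.00566). The p53 gene Trp53 itself was lower (-0.16) and Mdm2 higher (0.13), both by little beside Sesn2 and Cdkn1a.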

How the data were processed

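RNA of whole hearts was sequenced by the authors after extraction with a column kit and library preparation with a stranded mRNA kit, per the labels' protocols. The table deposited by the authors gives 1 estimated count per Ensembl gene ID and library, a whole number with no scaling for depth or length. Per the submitters' processing notes, kallisto and the build mm10 were used; the transcripts indexed, how they were added up per gene and how values were rounded were not given in the sources used here. Columns were matched to samples by name; the knockout columns carry CKO where the titles carry MCKO.

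MCKO and control libraries were set against each other in edgeR 4.0.16 under R 4.3.3 (genes kept by filterByExpr, TMM factors, robust quasi-likelihood fit with group as the only term, 2-sided test, Benjamini-Hochberg adjustment over all 14697 tested genes). The common biological coefficient of variation was 7.31%. CPM values are TMM-normalised, log2 fold changes are MCKO over control, and a count of 0 allows up to 0.0876 to 0.156 CPM (3 counts per library, counting error only). Symbols matched 29936 of the 30323 IDs. Copies were found with minimap2 2.31 among GENCODE M21 transcripts; lengths are those of the shortest principal coding transcript. The fit was tested on simulated counts.

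Alternatives tried were RLE size factors, bare library totals, TMM without the members, their copies and mitochondrially encoded genes, and 2 other count filters. Further ones were DESeq2 1.42.0, limma-voom (limma 3.58.1), a replicate block and counts summed with copies. A stricter threshold (0.01), a minimum change and each library left out were also tried. The text names the 8 largest rises and the largest falls among called members, genes of known role, paralogs, the 3 highest per kilobase, the 3 with the largest p, the 5 most abundant copies and up to 4 called genes of each related list by smallest p. A few results taken by that choice are not reported here. Others, such as the copies of members that were lower, were named after their values were seen. Members and lists were chosen with earlier results of these data known, and the list of mitochondrial ribosomal proteins was added later. RefSeq promoter windows hold 250 bases before and 50 after a start.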

Additional observations from a re-analysis of the deposited data

How the results depend on the processing

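Over 17 alternatives the median of the members stayed between 0.18 and 0.29 and Cdc42 between -0.72 and -0.62, called each time. A test against a minimum change of 0.25 on the log2 scale called 5049 genes, 10 members higher and 3 lower. The adjusted p threshold of 0.01 left 36 higher and 4 lower. The shares of all genes called in each direction are given above for the main fit, the minimum change and the summed counts only. Other counts of members in this section have no such share beside them. Leaving out 1 library at a time gave 7452 to 8695 called genes, 39 to 58 members higher, 4 to 7 lower and medians of 0.19 to 0.29. For the 34 tested members followed singly, 516 of 577 values kept their direction and side of the threshold, 40 lost the call, 7 gained it and 14 changed sign. Summing with copies changed the sign of Rpl11 (-0.14), Rpl30 (0.0070), Rpl5 (0.37), Rps13 (0.26) and Rps7 (0.17), by adding the copies' counts. Rpl12 turned to -0.055 with library totals and to -0.0035 with limma-voom. With 1 library left out, Rpl12 ran from -0.062 to 0.12, Rpl3l from -0.30 to 0.23, Rplp1 from -0.11 to 0.34 and Rpsa from -0.12 to 0.0084. None of these 4 genes was called with all libraries, and the cause was not tested. The replicate numbers did not pair the samples (correlations -0.0047, 0.0216 and -0.13 for numbers 1, 2 and 3), and a fit with the number as a block called 7765 genes, 43 members higher and 5 lower, with a median of 0.24. Genes under 1 CPM, such as Rpl3l, rest on few reads.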

Other observations

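Some copies of ribosomal protein genes had values that were equal or varied widely within a group. Gm13841 and Gm8210, both copies of Rpl29, each had 31.98, 32.7 and 34.2 CPM in MCKO and 43.5, 47.6 and 41.0 CPM in control hearts. Rps12l1, a copy of Rps12, had no count in any MCKO library, in control replicate 1 or in control replicate 2, and 58.6 CPM in control replicate 3. Rps13-ps2, identical to Rps13 over all 453 aligned bases, had 17.6, 0.238 and 0 CPM in MCKO and 48.7, 20.6 and 115 CPM in control hearts, so that values of this copy varied widely within each group. It was not called (-3.23, SE 1.4, edgeR adjusted p = 0.120).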
